A study of Homo sapiens with 12 samples.

Results

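Cerebral organoids (COs) grown from *c-JUN* edited human embryonic stem cells were followed from day 12 to day 24 in 8 RNA-seq libraries, those whose titles name clone KO#2 or KO#10, out of 12 libraries in the series. Each clone had 2 libraries on day 12 and 2 on day 24. KO#2 and KO#10 are CRISPR-Cas9 edited clones of H1, an established embryonic stem cell line, so each stands for a single edited clone. The other 4 libraries came from unedited H1 COs (WT) on the same days and are used below as a reference. All COs were made by the same unguided protocol, in which embryoid bodies pass through neural induction and are then embedded in Matrigel, with no added signal for a brain region. Each library held the RNA of 3 to 4 pooled COs, and nothing in the labels says whether the 2 replicates of a clone and day came from separate cultures, so the *p*-values measure the spread between these libraries, which may be technical. On day 12, same-numbered libraries of the 2 clones were more alike than the 2 replicates of either clone. The 4 edited libraries of a day may therefore not be independent, while the *p*-values treat them as if they were. In pooled COs, fewer cells of a type and less RNA per cell cannot be told apart.

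c-JUN is a leucine zipper transcription factor of the AP-1 family, which binds DNA as a dimer with FOS, ATF or other JUN proteins. In an unguided CO, pluripotent cells become neuroepithelium, and the neuroepithelium then yields radial progenitors, the first neurons and, at its dorsal edge, cortical hem and choroid plexus. During this period the RNA-binding proteins LIN28A and LIN28B, which block maturation of the let-7 microRNAs, are normally lost, and miR-9 and its host transcripts appear in neural progenitors.

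The *JUN* RNA was read first, as a check of the labels. *JUN* (ENSG00000177606, listed at chr1:58776845-58784048) had values of 19 and 18 in KO#2 and 14 and 13 in KO#10 on day 12, and of 39, 39, 29 and 32 on day 24 in the same order. The WT libraries had 4 and 8 on day 12 and 13 and 15 on day 24. *JUN* RNA was therefore higher in every library labelled KO than in every WT library of the same day, and it rose from day 12 to day 24 in the libraries labelled KO by 1.08 ± 0.10 on the log2 scale (SE, n = 4 and 4; limma adjusted *p* = 0.000278). RNA scores carry no information on the protein, and these values alone do not check the edit. The KO names below are those of the labels.

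Every value here is a whole-number score per gene. The scores have the same median of 17 and the same highest value of 5585 in each library, with 269 to 271 distinct values, so they had been forced to a shared distribution and the sequencing depth behind them is unknown. At the top of the range the shared values are far apart, and a change in a gene of very high score can be a single step of this scale. Of 10976 genes in the files, 9436 reached a score of 10 in 2 or more of the 8 libraries and were tested with limma on log2(score + 1), with clone as a block. Changes are given on that log2 scale, which understates those of genes with low scores. Some genes of the marker lists used below have no score at all, so a gene that was not tested need not have been low. Values of 4 libraries are given in the order KO#2 replicate 1 and 2, then KO#10 replicate 1 and 2.

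The library KO#10 day 24 replicate 1 stood apart from the other 3 edited libraries of day 24, and results that rest on it are given with and without it. On the second principal component (12.9% of the variance) it lay at −38.3, while the other day 24 libraries were all positive and reached 16.0. The first component (64.4%) separated all 4 day 12 libraries, at −44.9 to −25.1, from all 4 day 24 libraries, at 28.9 to 41.2, this one included.

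Between day 12 and day 24, 546 genes rose (5.79% of those tested) and 508 fell (5.38%) when a call needed both an adjusted *p* below 0.05 and a change of 2-fold or more, together 1054 (11.2%). All 4 day 24 libraries lay above all 4 day 12 libraries in 476 of the genes that rose, and below them in 434 of those that fell. Over all genes tested, 16.5% had day 24 entirely above day 12 and 15.9% entirely below. A change of at least 4-fold was called for 144 genes that rose and 83 that fell, and of at least 8-fold for 45 and 17. The median change over all genes was 0.0072. A further 39 genes had a fitted rise and 28 a fitted fall of at least 2-fold without passing the test.

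*LINC00461*, a long noncoding RNA that hosts a miR-9 hairpin, had the largest change. Its scores were 0, 1, 0 and 1 on day 12 and 72, 243, 16 and 266 on day 24, a change of 6.07 ± 0.79 (SE; adjusted *p* = 0.00108). The 2 days did not overlap, and the lowest day 24 score was that of KO#10 replicate 1. The stathmin *STMN2*, which regulates microtubules in growing axons, went from 8, 12, 4 and 13 to 318, 356, 66 and 153 (4.28 ± 0.41; adjusted *p* = 0.00034), with KO#10 replicate 1 again lowest of the day. The other genes with the largest changes upward and no overlap between the days were *ISLR2* (4.16), *BCL11A* (4.08), *RSPO2* (4.79), *TTR* (4.93), *COL3A1* (5.19), *POSTN* (4.21), *LUM* (4.05) and the histone gene *H2AC15*. Without KO#10 day 24 replicate 1 the changes of *COL3A1*, *LUM*, *TTR* and *RSPO2* were 4.12, 3.05, 4.51 and 4.41. *POSTN* reached a score of 10 in 2 or more libraries only with that library, so its place here rests on it. *H2AC15* was listed at 0 in all 4 day 12 libraries and at 55, 47, 47 and 31 on day 24, but replication-dependent histone genes have near-identical copies between which reads may have been split, and its change of 5.49 is uncertain for that reason.

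Among the genes that fell, *DLK1*, an imprinted gene for a transmembrane ligand related to the Notch ligands, changed most. Its scores were 3043, 902, 901 and 452 on day 12 and 20, 17, 37 and 6 on day 24 (−5.85 ± 0.57; adjusted *p* = 0.000358). *PRTG*, the gene of protogenin, an immunoglobulin-family protein of early neuroepithelium, had the smallest adjusted *p* of all genes. It went from 604, 667, 604 and 820 to 17, 25, 33 and 26, a change of −4.71 ± 0.17 (adjusted *p* = 5.41e-06), with all 4 day 24 libraries close together. *FZD5*, a WNT receptor of the anterior neural plate, went from 277, 100, 242 and 68 to 39, 3, 4 and 0 (−4.79 ± 0.86; adjusted *p* = 0.00391). Its 2 replicates differed widely on both days, although the days did not overlap. The others of this group were *LIN28A* (−4.27), *NOS2* (−4.21), *GREB1L* (−3.92), *TPM1-AS* (−3.75), *RAX* (−3.71), *CA4* (−3.48) and *BLACAT1* (−3.45). *TPM1-AS* lies antisense to *TPM1*, and whether the counting used the strand is not given in the sources used here.

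**Figure D1:**
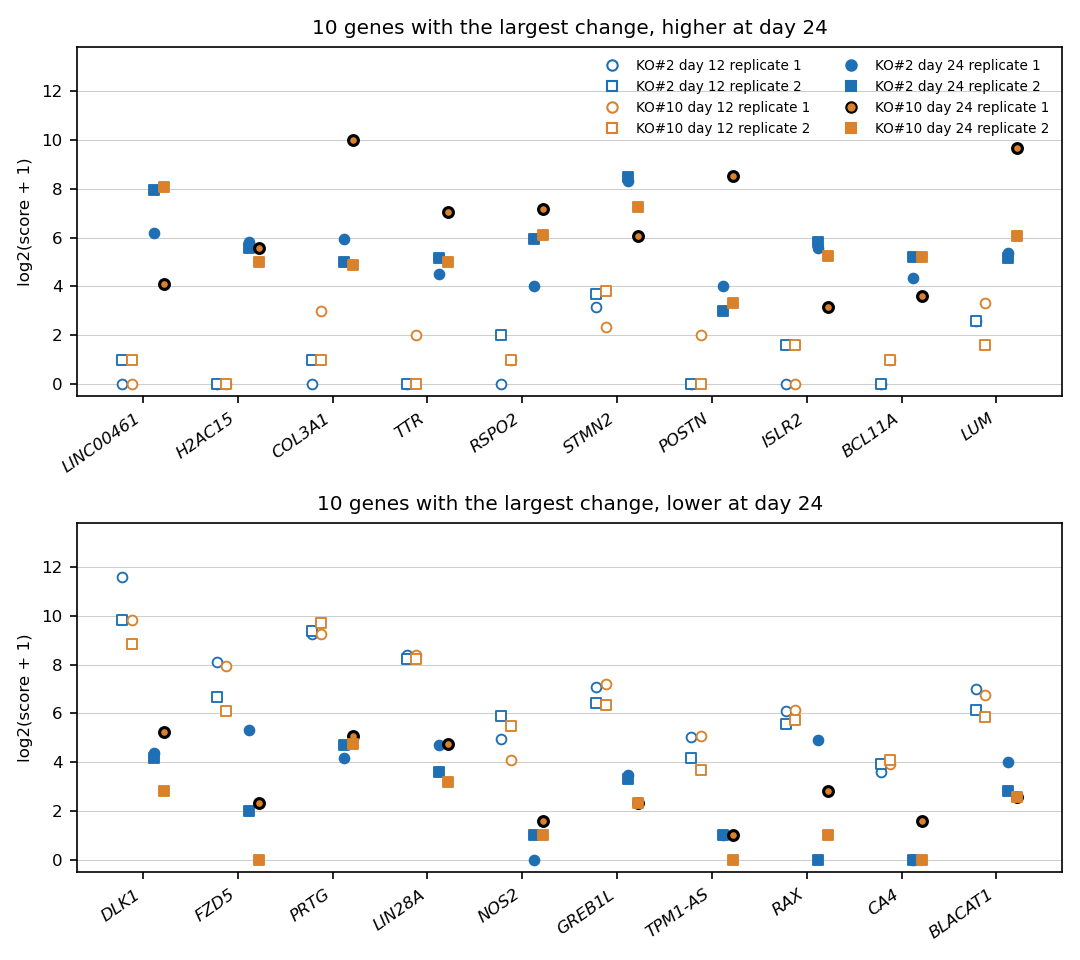
Score of the 10 genes with the largest called change in each direction, as log2(score + 1), in each of the 8 edited libraries. Open symbols are day 12 and filled symbols day 24, circles replicate 1 and squares replicate 2, and a black edge marks KO#10 day 24 replicate 1. For *COL3A1*, *LUM* and *POSTN* that library lies far above the other 3 of its day, at scores of 1009, 822 and 369, and for *LINC00461* and *STMN2* below them, at 16 and 66.

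The genes with the smallest adjusted *p* were, by that choice, a steadier set than those with the largest changes. Upward these were *H2AC15*, the axonal growth gene *GAP43*, *ATRNL1*, the GABA transaminase gene *ABAT* and *RHOBTB3*. *GAP43* had 2, 3, 2 and 4 on day 12 and 52, 77, 56 and 53 on day 24 (4.03 ± 0.21; adjusted *p* = 2.56e-05), and KO#10 replicate 1 lay within the range of the other 3. Downward they were *PRTG*, the orphan nuclear receptor gene *NR6A1*, the zinc-finger gene *SALL4*, *TTC17* and *PNISR*. *NR6A1* had 58, 77, 72 and 92 on day 12 and 8, 6, 8 and 6 on day 24 (−3.24 ± 0.16; adjusted *p* = 2.56e-05), and *SALL4* had 99, 100, 114 and 94, then 27, 23, 17 and 19 (−2.21 ± 0.14; adjusted *p* = 6.91e-05). None of these 10 genes lost its call when any of the 8 libraries was left out, which their selection by adjusted *p* in these same libraries nearly fixes.

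Genes of the pluripotent state fell together. Of 11 listed members that were tested, 10 fell and none rose, against a background of 5.38% lower, and the median change was −2.21. The member that was not called, *TERF1*, had a change of −0.44. *LIN28A* had 335, 302, 335 and 302 on day 12 and 25, 11, 26 and 8 on day 24 (−4.27 ± 0.34; adjusted *p* = 0.000141). *DPPA4*, a chromatin protein of pluripotent cells, went from 96, 83, 106 and 82 to 8, 15, 12 and 9 (−2.98). *POU5F1*, the gene of OCT4, was already low on day 12, at 16, 19, 17 and 16, and lower on day 24, at 6, 4, 3 and 5 (−1.74 ± 0.20; adjusted *p* = 0.000596). The summed score of the 11 genes was 792 to 832 in the edited libraries of day 12 and 106 to 154 on day 24, with KO#10 replicate 1 (148) inside that range. The WT libraries kept summed scores of 1174 to 1370 on day 12 and 764 to 1483 on day 24. The labels give embryonic stem cells as the source. On day 12 *SOX2* (97 to 146) and the neural gene *PAX6* (90 to 112) were present in all 4 edited libraries.

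Around *LIN28A*, the genes that time development were measured as a list of 16 RNA-binding proteins, their partners and microRNA host transcripts. Of these 16, 5 fell and 4 rose, against 5.38% and 5.79% of all genes. Those that fell were *LIN28A*, *LIN28B* (−1.9), *NR6A1*, the ubiquitin ligase gene *TRIM71* (−3.15), which is itself repressed by let-7, and *MIR302CHG* (−2.83), host of the miR-302 and miR-367 hairpins of pluripotent cells. Those that rose were the hosts *LINC00461*, *MIR9-3HG* (2.99), *MIR9-1HG* (2.14) and *MIR99AHG* (1.58). The mRNA-stabilising proteins *IGF2BP1*, *IGF2BP2* and *IGF2BP3* had changes of −0.56, −0.70 and −0.86, and the let-7 target *HMGA2* one of 0.65, none of them called. The mature microRNAs were not measured, and a host transcript's score need not follow them. Of 527 tested genes that hold a microRNA hairpin on their own strand in RefSeq (GRCh38.p14), 38 rose (7.21%) and 33 fell (6.26%), shares close to those of all genes.

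The sequences show what these hosts encode. All 3 hosts of the miR-9 hairpins rose, *MIR9-1HG* (hairpin at chr1:156420341-156420429, minus strand), *LINC00461* (chr5:88666853-88666939, minus strand) and *MIR9-3HG* (chr15:89368017-89368106, plus strand), and they share 1 mature 5p arm. *MIR99AHG* holds miR-99a and let-7c (hairpins at chr21:16539089-16539169 and chr21:16539828-16539911, plus strand), the latter of the family that LIN28 proteins act on. *MIR302CHG* holds 5 hairpins within chr4:112647874-112648557 on the minus strand, and its miR-302a to miR-302d share 1 seed. Mature sequences from RefSeq are written 5′ to 3′ with the seed, bases 2 to 8, in capitals.
hsa-miR-9-5p: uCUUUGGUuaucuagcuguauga
hsa-let-7c-5p: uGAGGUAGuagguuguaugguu
hsa-miR-99a-5p: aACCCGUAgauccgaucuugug
hsa-miR-302a-3p: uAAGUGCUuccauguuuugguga
hsa-miR-302b-3p: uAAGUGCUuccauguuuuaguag
hsa-miR-302c-3p: uAAGUGCUuccauguuucagugg
hsa-miR-302d-3p: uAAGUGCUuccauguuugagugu
hsa-miR-367-3p: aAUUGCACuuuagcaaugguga

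The 3 miR-9 hosts did not move alike in the day 24 libraries. *MIR9-1HG* had 13, 27, 9 and 40 on day 12 and 61, 167, 33 and 172 on day 24, so that the days overlapped (33 against 40), and its call was kept in 4 of the 8 fits that left out a library. *MIR9-3HG* had 2, 2, 1 and 1, then 21, 36, 4 and 34. In each of the 3, KO#10 replicate 1 was the lowest day 24 library. *MIR302CHG* had 12, 29, 12 and 56 on day 12 and 6, 3, 3 and 0 on day 24, and in WT 60 and 63, then 120 and 250.

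Progenitor genes did not move in one direction. Of 23 tested, 5 rose and 4 fell, against 5.79% and 5.38% of all genes, and the median change was 0.08. Without KO#10 day 24 replicate 1, 4 of 22 rose and 3 fell, and the median was −0.025. *VIM*, the intermediate filament of neuroepithelium and radial glia, went from 264, 424, 235 and 335 to 666, 666, 748 and 550 (1.09), the glutamate transporter gene *SLC1A3* of radial glia rose by 1.57, and *ZIC1* by 3.83. *SOX21* fell by 2.96 on the log2 scale, the phosphatase gene *PTPRZ1* by 2.19 and *SOX2* by 1.13. *SOX2* had 146, 97, 136 and 98, then 48, 67, 34 and 73. *VIM* and *SOX2* were no longer called without KO#10 day 24 replicate 1. *PAX6* had a change of −0.33 (adjusted *p* = 0.0728), with 109, 109, 90 and 112 on day 12 and 106, 82, 73 and 74 on day 24.

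Genes of neurogenic commitment had a median change of 1.79, and 4 of 10 rose while 1 fell, against 5.79% and 5.38% of all genes. *INSM1*, which drives delaminating progenitors toward neurons, was at 0, 1, 0 and 0 on day 12 and at 13, 10, 5 and 10 on day 24 (3.08). *HES6*, an antagonist of HES1, went from 11, 11, 7 and 9 to 50, 50, 30 and 55 (2.15 ± 0.18; adjusted *p* = 0.000177). The Notch ligand gene *DLL3* (2.01) and the early neuronal gene *NHLH1* (1.91) rose too, and the antiproliferative gene *BTG2* fell by 1.28. In all 10 genes KO#10 day 24 replicate 1 was below the other 3 libraries, and without it 6 of 10 rose. The added genes were *NEUROG2*, the proneural factor of the dorsal forebrain, and *EOMES*, a marker of intermediate progenitors. *NEUROG2* had 12, 32, 1 and 44 on day 24 and *EOMES* had 13, 17, 2 and 19, with changes of 1.67 (adjusted *p* = 0.149) and 1.99 (adjusted *p* = 0.0549) in the fit of all 8 libraries and of 2.72 (adjusted *p* = 0.00149) and 2.58 (adjusted *p* = 0.0162) without that library.

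Neuronal genes formed the broadest upward group. Of 27 tested, 20 rose and none fell, against 5.79% of all genes, with a median change of 2.21, and 22 of 27 rose without KO#10 day 24 replicate 1. After *STMN2* and *GAP43*, the largest changes were those of the membrane glycoprotein gene *GPM6A* (3.95), the RNA-binding protein genes *ELAVL4* (3.35) and *ELAVL3* (3.06), *DCX* (3.30), a microtubule protein of migrating neurons, *RTN1* (2.80) and the neurofilament gene *NEFM* (2.70). *DCX* had 4, 6, 2 and 5 on day 12 and 70, 80, 17 and 56 on day 24 (3.30 ± 0.37; adjusted *p* = 0.000616). The α-tubulin gene *TUBA1A* reached the coarse top of the scale, from 369, 604, 370 and 508 to 5585, 3047, 903 and 3047 (2.53). *MAP2*, of the dendritic cytoskeleton, had 149, 200, 200 and 193, then 668, 1009, 95 and 750, which is 1.34 (adjusted *p* = 0.108) with all libraries and 2.12 (adjusted *p* = 0.000273) without KO#10 replicate 1.

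The summed neuronal score was 1072 to 1620 on day 12, 6064 to 9278 in the 3 other edited libraries of day 24 and 2003 in KO#10 replicate 1. *TUBA1A*, at the coarse top of the scale, made up a large part of the day 24 sums. The mean of log2(score + 1), in which a single gene weighs less, was 3.55 to 4.24 on day 12. On day 24 it was 6.11 to 6.52 in those 3 libraries and 5.04 in KO#10 replicate 1. That library was below all 3 others in 23 of the 27 genes and above them in 2. In WT the summed score was 842 to 1381 on day 12 and 940 to 1408 on day 24, and the mean 3.25 to 3.68 and 4.09 to 4.57. The median change of the 27 genes in WT was 0.83. None of them had a called difference between the edited and the WT change. Markers of other tissues moved the opposite way in the same library, as described further on, and their part in its lower neuronal scores was not tested.

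Of 39 listed ion channel and transmitter genes, 28 had scores and 11 passed the filter on low values. Of these 11, 5 rose and 2 fell, against 5.79% and 5.38% of all genes. Among them, the AMPA receptor subunit gene *GRIA2* (2.35), the sodium channel gene *SCN3A* (1.87), the vesicular glutamate transporter gene *SLC17A6* (1.85) and the potassium channel gene *KCNH2* (1.22) rose. *SLC17A6* had 3, 3, 1 and 2 on day 12 and 12, 13, 5 and 14 on day 24. The subunit genes *GRIA1* and *CACNA1A* fell by 1.35 and 1.23. Among splicing regulators 2 of 17 rose, *CELF3* (2.20) and *PTBP2* (1.22), the neural paralog of *PTBP1*, whose own change was −0.41. Without KO#10 day 24 replicate 1, 5 of 16 rose, and the share of all genes was 5.79% with it.

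**Figure D2:**
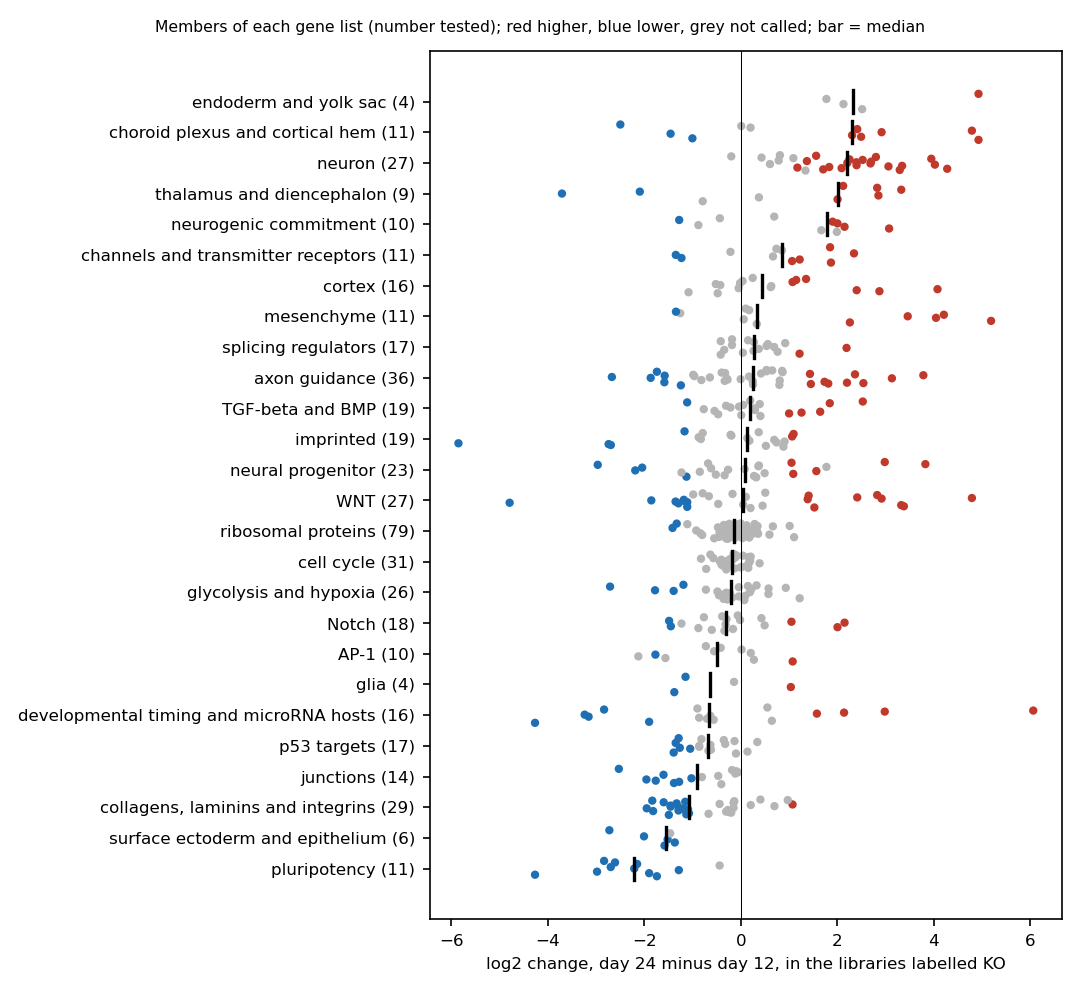
Change of each tested member of the gene lists, day 24 minus day 12 on the log2(score + 1) scale, in the 8 edited libraries, with the number tested in parentheses. Red members rose and blue members fell by the same call as in the text, grey members were not called, and bars are medians, from −2.21 for pluripotency to 2.21 for neurons and 2.32 for the 4 genes of endoderm and yolk sac. Cell cycle genes lie close to 0, with none of 31 called.

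Regional genes gave a mixed pattern. Of 16 cortical genes 6 rose and none fell, against 5.79% and 5.38% of all genes, with a median of 0.44, and 5 rose without KO#10 day 24 replicate 1. They were *BCL11A* (4.08), a factor of cortical neurons, the dorsal telencephalic patterning gene *EMX2* (2.88), *TBR1* (2.41), a factor of the first cortical projection neurons, *NR2F1* (1.36), *CUX2* (1.15) and *MEF2C* (1.08). *BCL11A* went from 0, 0, 1 and 1 to 19, 36, 11 and 36, and *TBR1* from 1, 4, 1 and 5 to 24, 27, 4 and 26. *EMX2* had 1, 11, 0 and 12, then 15, 48, 18 and 60, and its call was kept in 4 of 8 fits with a library left out. On both days the replicates of *EMX2* differed more than the clones did.

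Of 24 listed genes of the thalamus and diencephalon, 13 had scores and 9 were tested. Of these 9, 5 rose and 2 fell, against 5.79% and 5.38% of all genes. Both that fell are genes of the early eye field and anterior forebrain, *RAX* and *SIX3*. *RAX* had 68, 46, 70 and 52, then 29, 0, 6 and 1 (−3.71 ± 0.89; adjusted *p* = 0.0126), and *SIX3* had 41, 33, 44 and 26, then 14, 9, 6 and 4 (−2.09). Those that rose were *WNT8B* (3.33), *FOXP2* (2.86), *LEF1* (2.83), *TRH* (2.12) and *LHX9* (2.01), of which *WNT8B* and *LEF1* also belong to the dorsal midline. *TCF7L2*, a marker of the thalamus, had 18, 17, 19 and 19, then 9, 10, 13 and 9, a change of −0.79 that was under the 2-fold threshold (adjusted *p* = 0.00335). Of 18 listed midbrain and hindbrain genes, 3 had scores and *FGF8* alone was tested. It fell by 2.41, with 15 in KO#10 replicate 1 and 5, 2 and 1 in the other day 24 libraries.

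Choroid plexus and cortical hem genes rose in part, 6 of 11, while 3 fell, against 5.79% and 5.38% of all genes. *TTR*, the transthyretin gene that choroid plexus epithelium shares with liver and yolk sac, was at 0, 0, 3 and 0 on day 12 and at 22, 35, 130 and 31 on day 24 (4.93 ± 0.52; adjusted *p* = 0.000465). The R-spondin genes, which encode WNT-enhancing ligands of the hem, were *RSPO2* (4.79), *RSPO1* (2.92) and *RSPO3* (2.42), and the roof plate factors *LMX1A* (2.5) and *MSX2* (2.31) rose with them. *RSPO2* had 0, 3, 1 and 1, then 15, 60, 142 and 67. *HTR2C*, *OTX2* and *KCNJ13* fell by 2.5, 1.45 and 1.00. In all 11 genes KO#10 day 24 replicate 1 was above the other 3 libraries, with a summed score of 527 against 122 to 241. In WT this sum was 541 to 604 on day 24, of which *TTR* made up 424 and 471.

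WNT genes changed in both directions. Of 27 tested, 9 rose and 8 fell, against 5.79% and 5.38% of all genes. The ligand genes *WNT7A* (3.38), *WNT8B* (3.33) and *WNT5A* (1.53), the R-spondins, the effector *LEF1*, the feedback target *AXIN2* (1.41) and *DKK3* (1.39) rose, and the receptor genes *FZD5*, *FZD8* (−1.35), *FZD3* (−1.29) and *FZD7* (−1.11), the antagonist genes *SFRP2* (−1.85), *FRZB* (−1.18) and *SFRP1* (−1.17), and *WNT5B* (−1.11) fell. *WNT7A* was listed at 0 in all 4 day 12 libraries and at 17, 14, 3 and 10 on day 24. *AXIN2* had 10, 14, 7 and 18, then 19, 38, 38 and 40. Without KO#10 day 24 replicate 1, 9 rose and 4 fell.

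In the Notch pathway 3 of 18 genes rose and 2 fell, against 5.79% and 5.38% of all genes. Those that rose were *HES6*, *DLL3* and *HEY1* (1.05). Those that fell were the ligand gene *JAG1* (−1.45) and *LFNG* (−1.48), which encodes a glycosyltransferase that modifies Notch. *JAG1* had 104, 75, 61 and 64, then 32, 24, 25 and 26 (adjusted *p* = 0.00048). The target *HES5* had a change of −1.23 (adjusted *p* = 0.0594) and *HES1* one of 0.50 (adjusted *p* = 0.182). *HEY1* was not called without KO#10 day 24 replicate 1, which lay below the other 3 in 13 of the 18 genes. Of 19 genes of TGF-β and BMP signalling, 5 rose and 1 fell, against the same shares of all genes. The 5 were the pseudoreceptor *BAMBI* (2.53), the inhibitor of differentiation *ID4* (1.85) and the receptors *ACVR2A* (1.65), *BMPR2* (1.26) and *BMPR1B* (1.00). The activin antagonist *FST* fell by 1.11.

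Axon guidance genes changed in both directions, 9 up and 6 down of 36, against 5.79% and 5.38% of all genes. The Eph receptor gene *EPHA3* had 10, 23, 7 and 12, then 552, 212, 40 and 206 (3.79). *SEMA3C* (3.14), *SLIT3* (2.54), *EPHA5* (2.37), the netrin receptor *DCC* (2.20) and *SLIT2* (1.82) also rose. *DCC* went from 3, 7, 6 and 8 to 25, 37, 22 and 39 with no overlap between the days. Semaphorin genes *SEMA5A* (−2.67) and *SEMA3F* (−1.87), the ephrin gene *EFNA5* (−1.74), *UNC5D* (−1.58), *EPHA2* (−1.58) and the Slit receptor *ROBO1* (−1.24) fell. *SLIT2* and *SLIT3*, whose introns carry the miR-218 hairpins, were highest in KO#10 replicate 1, at 96 and 28.

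Matrix and adhesion genes fell more often than they rose. Of 29 genes for collagens, laminins, integrins and related matrix proteins, 15 fell and 1 rose, against backgrounds of 5.38% and 5.79%, and the median change was −1.07. The largest falls were those of the laminin β1 gene *LAMB1* (−1.95), the integrin gene *ITGB5* (−1.83), *COL9A3* (−1.82), *ITGA7* (−1.60), the cartilage-type collagen gene *COL2A1* (−1.49), the perlecan gene *HSPG2* (−1.45) and *NID1* (−1.45). *LAMA5*, named here for its small spread after its values were seen, had 27, 31, 30 and 30, then 12, 11, 12 and 15 (−1.18). *LAMB1* had 55, 52, 64 and 50, then 13, 8, 43 and 7, so that KO#10 replicate 1 nearly kept its day 12 level. The proteoglycan gene *VCAN* was the member that rose (1.08; adjusted *p* = 0.049), with 167, 369, 83 and 250 on day 24 and 77 to 106 on day 12, which overlap, and its call was kept in 1 of 8 fits that left out a library.

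Epithelial and junction genes fell as well. Of 6 genes of surface ectoderm and epithelium, 5 fell and none rose, against 5.38% lower and 5.79% higher over all genes. *CLDN6* had 9, 30, 16 and 38, then 1, 2, 8 and 1 (−2.72), the keratin genes *KRT19*, *KRT18* and *KRT8* had changes of −2.01, −1.52 and −1.37, and the E-cadherin gene *CDH1* one of −1.58. *KRT8* was at 29, 20 and 24 in 3 day 24 libraries and at 122 in KO#10 replicate 1, above all 4 day 12 libraries (77 to 114), and its call was kept in 1 of 8 fits that left out a library. The summed score of the 6 was 186 to 307 on day 12, 41 to 66 on day 24 and 244 in that library, against 633 to 817 in WT on day 24. Of 14 junction genes 7 fell and none rose, against the same shares, among them *CDH11* (−2.53), *CLDN4* (−1.96), the occludin gene *OCLN* (−1.76), *DSP* (−1.60), *F11R* (−1.28) and *PARD6B* (−1.02). *OCLN* had 26, 24, 26 and 22, then 7, 5, 10 and 5, while *TJP1*, the ZO-1 gene, had a change of −0.40 (adjusted *p* = 0.0674). KO#10 replicate 1 lay above the other 3 in 11 of the 14.

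Mesenchymal genes rose chiefly where KO#10 day 24 replicate 1 was far above the rest. Of 11 tested 5 rose and 1, *TAGLN*, fell (−1.34), against 5.79% and 5.38% of all genes. Without that library 9 passed the filter on low values, of which 4 rose and 2 fell. *COL3A1* had 0, 1, 7 and 1 on day 12 and 60, 31, 1009 and 28 on day 24, with a change of 5.19 ± 0.96 and of 4.12 without it. *LUM*, the lumican gene, had 5, 5, 9 and 2, then 40, 35, 822 and 66 (4.05, and 3.05 without it). *DCN* (3.46), *POSTN* and *COL1A2* (2.26) were likewise highest in KO#10 replicate 1, at 604, 369 and 370. *POSTN* was not tested without that library, since fewer than 2 of the other 7 reached a score of 10. The summed score was 93 to 105 on day 12, 173 to 209 in 3 day 24 libraries and 3323 in KO#10 replicate 1, above the 2294 and 2768 of WT on day 24. None of the 11 genes was at 0 in any of the 4 edited or 2 WT libraries of day 24.

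Of 25 listed genes of endoderm and yolk sac, 17 had scores and 4 were tested. There was 1 call, the rise of *TTR*, against 5.79% of all genes. Without KO#10 day 24 replicate 1 only 2 of the 4 passed the filter on low values. *FGB* and *APOA2* passed it only with that library, so the order of the libraries in them is partly fixed by the filter. *AFP*, a yolk sac and liver secretory gene, was at 42, 1, 902 and 0 on day 24, *FGB* at 10, 0, 112 and 0 and *APOA2* at 15, 0, 68 and 0, so KO#10 replicate 1 was highest, KO#2 replicate 1 second and the second replicates of both clones at or near 0. Their changes of 2.52, 1.78 and 2.13 were not called. Both WT libraries of day 24 had *AFP* at 5585, the highest score of the scale. Of 13 listed neural crest genes 5 had scores, and none of these passed the filter on low values. Of 4 glial genes 1 rose and 2 fell, among them *CST3* (1.04) and *APOE* (−1.38), against 5.79% and 5.38% of all genes. *CST3*, the only rise, was highest in KO#10 replicate 1 on day 24 (98, against 58, 62 and 69) and was not called without that library.

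**Figure D3:**
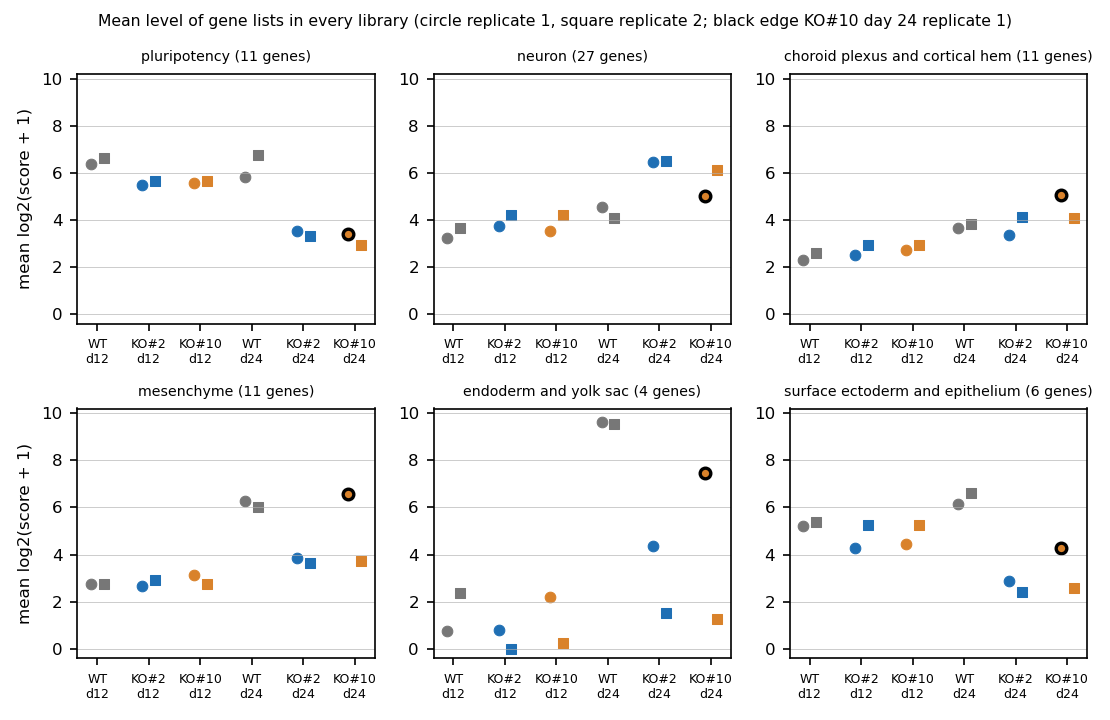
Mean log2(score + 1) of 6 gene lists in all 12 libraries, WT in grey, KO#2 in blue and KO#10 in orange, circles replicate 1 and squares replicate 2, with a black edge for KO#10 day 24 replicate 1. In mesenchyme that library (6.57) lies above the WT libraries of day 24 (6.04 and 6.26) and the other edited libraries (3.63 to 3.84), and in neurons (5.04) below the other edited libraries (6.11 to 6.52). Of the 11 genes of mesenchyme and the 4 of endoderm and yolk sac, 9 and 2 passed the filter on low values without that library.

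Other groups had few calls or none. None of 31 cell cycle genes was called, with a median of −0.18. The proliferation marker *MKI67* had a change of −0.30 (adjusted *p* = 0.069) and *TOP2A* one of −0.72 (adjusted *p* = 0.0175). Of 79 ribosomal protein genes 2 fell, *RPL13A* and *RPSA*, both by steps of the coarse top of the scale, and the median was −0.15. In glycolysis and hypoxia 4 of 26 fell and none rose, against 5.38% and 5.79% of all genes, the secreted peptide gene *ADM* (−2.71), the glucose transporter genes *SLC2A3* (−1.78) and *SLC2A1* (−1.39), and *EGLN3* (−1.19). *SLC2A1* had 200, 236, 200 and 220, then 58, 95, 69 and 112. Glycolytic enzymes such as *GAPDH* (−0.04) and *PGK1* (0.08) were not called.

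Of 17 p53 target genes 5 fell and none rose, against 5.38% and 5.79% of all genes, with a median of −0.67. *CDKN1A*, the p21 gene, had 36, 37, 38 and 25, then 6, 15, 17 and 14 (−1.39; adjusted *p* = 0.0067), and *DDB2*, *AEN*, *GADD45A* and *BBC3* had changes of −1.35, −1.29, −1.26 and −1.05. Among 19 imprinted genes 4 fell and 2 rose, against the same shares. Those that fell were *DLK1*, its chromosome 14 neighbours *MEG3* (−2.69) and *MEG8* (−2.74), and *L3MBTL1* (−1.16), and *NNAT* (1.10) and *NDN* (1.07) rose. *MEG3* had 12, 4, 42 and 29, then 1, 1, 1 and 5. Of 10 AP-1 genes 1 rose, *JUN*, and 1 fell, *FOSL2*, against the same shares, so the group gave only a single call each way. *FOSL2* went from 13, 12, 9 and 9 to 2, 2, 4 and 2 (−1.77; adjusted *p* = 0.0026). *FOS* (−1.56), *FOSB* (−2.12) and *JUND* (0.27) were not called. Of 32 genes that the study names for COs, a list drawn from work on these same samples, 7 rose and 7 fell, against the same shares. The largest fall not yet given was that of the ubiquitin ligase gene *NEDD4*, from 5585, 5585, 5585 and 1204 to 1009, 822, 302 and 507 (−2.67).

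The time change was then fitted in each clone. In KO#2, 343 genes rose (3.64%) and 287 fell (3.04%), together 6.68%. In KO#10, 348 rose (3.69%) and 401 fell (4.25%), together 7.94%. Both clones called 195 of the genes that rose and 187 of those that fell. These are 56.9% and 65.2% of the KO#2 calls and 56.0% and 46.6% of the KO#10 calls. With 2 libraries a day, each clone's counts rested on single libraries and fell as low as 10 and 5 for KO#2 and 5 and 4 for KO#10 when a library was left out. All 1054 genes called over both clones had the same fitted direction in each, which their selection on the pooled change nearly fixes.

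A difference between the clones in their time change was called for 0 genes in limma, with a smallest adjusted *p* of 1. Of 9436 genes tested, 161 had an unadjusted *p* under 0.05, fewer than that threshold gives where nothing differs. The 2 replicates of KO#10 on day 24 are the pair that differs most, which enters the spread of this test. *NRXN3*, a presynaptic adhesion gene, had the smallest unadjusted *p* and was the only gene called in opposite directions in the clones, with 8 and 8 then 18 and 19 in KO#2 (1.12) and 7 and 8 then 3 and 3 in KO#10 (−1.08).

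The departure of KO#10 day 24 replicate 1 was described gene by gene. It was at least 2-fold above all 3 other edited libraries of the day in 148 genes and at least 2-fold below in 179, together 3.47% of the genes tested. The same count was 115 genes for KO#2 day 24 replicate 1, and 9 and 16 for the second replicates. Of the 148 genes, 37 were among those that fell with time in the fit of all 8 libraries and 32 among those that rose. Of the 179, 79 were among those that rose and 16 among those that fell. Its mean Euclidean distance to the other 3 was 57.3, while theirs ranged from 43.1 to 49.7.

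Among 564 genes that rose when this library was left out, it lay within the range of the other 3 in 147 (26.1%), above it in 101 and below it in 316. Among 513 that fell, it lay within the range in 211 (41.1%), above it in 198 and below it in 104. The genes farthest above were *DCN*, *COL3A1*, *LUM*, *COL1A2*, *PLS3*, *ZIC1*, *RMST*, *TTR*, *BAMBI* and *RSPO2* among those that rose, and *IGFBP3*, *GPC3*, *MGST1*, *SULF1*, *KRT8*, *KRT19*, *FGF8*, *TPM2*, *KRT18* and *LAMB1* among those that fell. *GPC3*, a glypican gene, had 198 in this library, 24, 34 and 33 in the others and 171 to 352 on day 12. The genes farthest below were *AMBN*, *NEUROG2*, *LINC01551*, *LINC00461*, *GPM6A*, *MAP2*, *EPHA3*, *MIR9-3HG*, *EOMES* and *PWRN1* among those that rose, and *PTPRZ1*, *KLHDC8A* and *SOX21* lead among those that fell. *PTPRZ1* had 28 in this library, 395, 370 and 370 in the others and 822 to 1009 on day 12.

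The place of this library on the time axis was measured as well. A position was set for each library between the mean of the other day 12 libraries (0) and that of the other day 24 libraries (1), over the genes called without it. KO#10 day 24 replicate 1 had a median position of 0.802 (quartiles 0.482 and 1.15), and 26.1% of the genes lay nearer to day 12. KO#2 day 24 replicate 1 was at 0.846 (19.5% nearer to day 12), and with the stricter filter of a score of 10 in 4 libraries the order of these 2 turned, at 0.866 (23.5%) for KO#10 and 0.80 (23.4%) for KO#2. By the first filter the second replicates were at 0.998 and 1.04. On day 12 the KO#2 libraries were at −0.079 and 0.144, and the KO#10 libraries followed with −0.086 and 0.206. *H2AC15*, *GAP43*, *FZD5*, *RAX* and *GREB1L* were among the genes with large changes in which it lay within the range of the other 3.

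**Figure D4:**
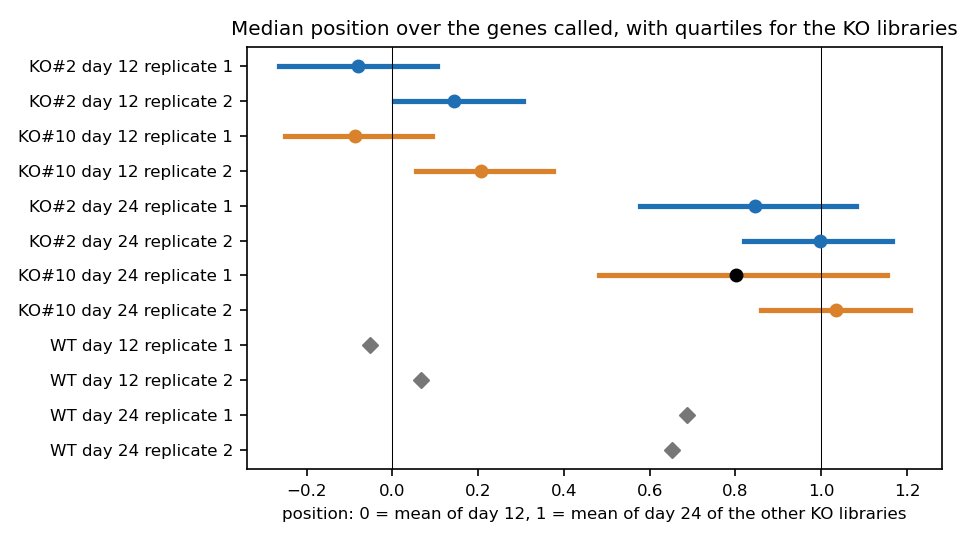
Median position of each library between day 12 (0) and day 24 (1) of the other edited libraries, with bars for the quartiles over genes, and of the WT libraries (grey) over the 1054 genes called. KO#10 day 24 replicate 1 (black point, 0.802) has the widest quartiles of the edited libraries, and the WT libraries of day 24 lie at 0.688 and 0.653.

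The same library was the edited library nearest to WT. Its distances to the 2 WT libraries of day 24 were 51.3 and 64.5, and those of the other 3 edited libraries ranged from 74.5 to 92.3. Of the 148 genes in which it was at least 2-fold above, both WT libraries of day 24 were also above the other 3 in 122 (82.4%, against 25.7% of all genes). Of the 179 in which it was below, both were also below in 164 (91.6%, against 30.5%). Its *JUN* score of 29 was below those of the other edited libraries of day 24 (39, 39 and 32) and above those of WT (13 and 15). The shares over genes are descriptions, since genes are not independent and both sides of each share are read against the same 3 libraries, so that the share of all genes is not what no relation would give, and what sets this library apart was not tested.

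Finally, the time change in the edited libraries was set against that in WT, with the difference tested over all 12 libraries. Of 9952 genes, the change was higher in edited COs for 57 (0.573%) and lower for 89 (0.894%), together 1.47%, and 2148 had an unadjusted *p* under 0.05. These counts rest on single libraries. They were 386 and 463 without KO#10 day 24 replicate 1, and 0 and 9 without WT day 12 replicate 1. In WT alone, 704 genes rose (7.07%) and 782 fell (7.86%).

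Of the 16 timing genes tested, 3 had a called lower change in edited COs, *LIN28A*, *NR6A1* and *LIN28B*, against 0.894% of all genes. *LIN28A* had 393 and 452 in WT on day 12 and 212 and 228 on day 24 (−0.94), a difference of −3.33 ± 0.53 from the edited change (SE; adjusted *p* = 0.0215). *NR6A1* had 88 and 95, then 44 and 38, in WT (difference −2.09; adjusted *p* = 0.00529). Outside that list, *PRTG* had 426 and 472, then 102 and 72 (difference −2.33; adjusted *p* = 0.00618). *LIN28B* (−1.54) and the pluripotency genes *L1TD1* (−2.48) and *SALL4* (−1.20) differed in the same direction. Edited COs already had lower *POU5F1* than WT on day 12, where WT had 107 and 136.

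The largest differences downward were those of *GDF15* (−5.42), a stress-induced growth factor, *CA4* (−5.27), *NOS2* (−4.63), *ANXA1* (−4.28), *TMEM88* (−4.27) and *ACTA2* (−3.90). *GDF15* rose in WT from 1 and 5 to 35 and 73, and it had 5, 11, 9 and 8, then 1, 2, 3 and 3, in the edited libraries. The p53 targets *CDKN1A* (−2.70), *GADD45A* (−2.37) and *BBC3* (−2.0), the junction genes *CLDN4* (−3.31), *OCLN* (−1.9), *F11R* (−1.88) and *PARD6B* (−1.74), and *SLC2A3* (−2.46) differed downward. *OCLN* had 29 and 22, then 28 and 28, in WT.

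Upward, the largest differences came from genes that fell far more in WT, such as *LINC00504* (4.03), *KIAA1328* (3.05) and *REV3L* (2.96). *LINC00504* went from 3030 and 1006 to 35 and 39 in WT and from 900, 1006, 900 and 1006 to 747, 549, 125 and 248 in edited COs. *NRN1*, the neuritin gene of growing neurites, was different in kind, at 0 and 1 then 1 and 1 in WT and at 1, 1, 2 and 1 then 17, 18, 19 and 19 in edited COs (difference 2.62 ± 0.56; adjusted *p* = 0.047). *NR2F1* (1.66) and *HES6* (1.5) also had a higher change in edited COs. For *LINC00461*, *DLK1* and *TTR* the difference was not called (adjusted *p* = 0.195, 0.0644 and 0.119).

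**Figure D5:**
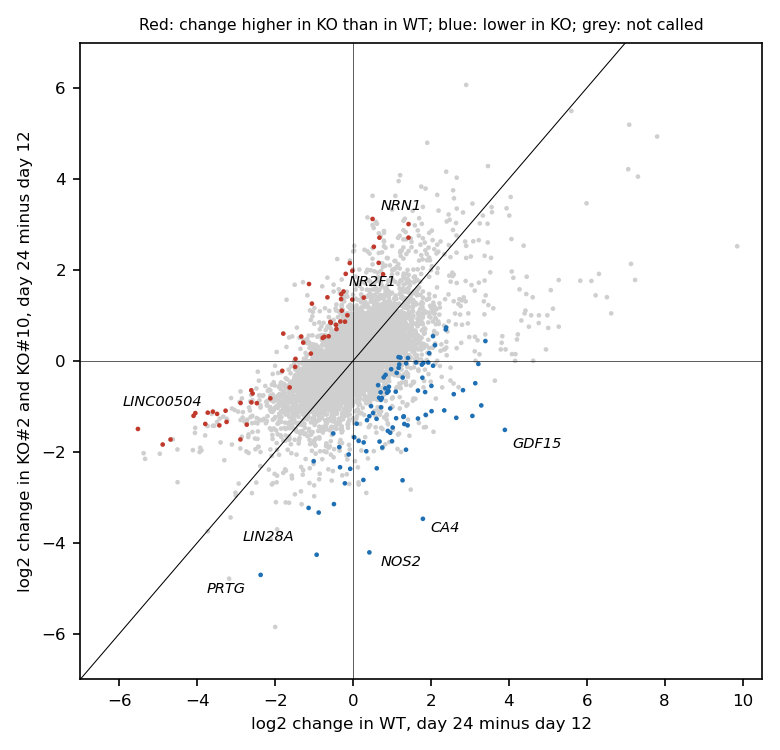
Log2 change from day 12 to day 24 in the edited COs against that in WT, with 1 point a gene over 9952 genes and the line of equal change. Red genes had a higher change in edited COs (57) and blue genes a lower one (89), with *LIN28A* (−4.27 in edited COs, −0.94 in WT) and *NRN1* (3.12 and 0.50) as examples.

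The promoters of the genes that changed were searched for the motif of AP-1, the family of the edited factor. A window of 250 bases before to 50 after the start site was held by RefSeq (GRCh38.p14) for 7747 of the genes tested, 427 that rose and 373 that fell. The motif TGANTCA, read on both strands and equal to its own reverse complement in its fixed letters, stood in 3.82% of all these promoters, in 4.68% of those of genes that rose and in 7.51% (28) of those that fell. The related motif TGACGTCA, bound by ATF and CREB dimers, stood in 3.86%, 3.28% and 2.41%, and TGACATCA in 1.41%, 2.81% and 0.536%. The E-box letters CAGATG stood in 8.96%, 10.8% and 15%, CAGCTG in 15.8%, 17.3% and 16.6%, and the octamer ATGCAAAT in 1.54%, 2.58% and 3.22%, so that TGANTCA was not alone in a higher share among genes that fell. These are counts of letters with no test, and a match does not show that a factor binds. The windows below show the match in *JUN* itself and in the 3 genes with the largest called falls whose TGANTCA match lay before the start site, with the motif in capitals.
JUN, chr1:58784077-58784144, minus strand: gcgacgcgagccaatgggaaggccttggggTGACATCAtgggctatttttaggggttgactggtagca
PAMR1, chr11:35530471-35530537, minus strand: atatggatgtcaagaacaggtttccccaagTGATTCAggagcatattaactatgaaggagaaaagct
EMP1, chr12:13196521-13196587, plus strand: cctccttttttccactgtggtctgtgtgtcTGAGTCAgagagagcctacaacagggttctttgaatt
C6orf141, chr6:49550470-49550536, plus strand: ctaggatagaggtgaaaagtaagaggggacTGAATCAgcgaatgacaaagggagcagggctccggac

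The motif began 67 bases before the start site in *JUN*, 207 in *PAMR1*, 175 in *EMP1* and 168 in *C6orf141*. The middle base of TGANTCA was G in *EMP1*, but T in *PAMR1* and A in *C6orf141*. *PAMR1* had 24, 21, 37 and 29 on day 12 and 1, 1, 4 and 2 on day 24 (−3.34 ± 0.22; adjusted *p* = 6.91e-05). *EMP1*, an epithelial membrane protein gene, had 13, 24, 14 and 11, then 1, 1, 4 and 0 (−2.91), and *C6orf141* had 13, 12, 21 and 14, then 0, 1, 3 and 3 (−2.72). In all 3 genes the days did not overlap, and KO#10 replicate 1 had the highest day 24 score or shared it. In WT, *EMP1* was low throughout, at 1 and 4, then 3 and 3.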

How the data were processed

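RNA was TRIzol-extracted from pooled COs, depleted of ribosomal RNA and sequenced. The submitters' processing notes list bcl2fastq, Bowtie2 and RSEM, and the build mm10, a mouse build, although the files hold human gene identifiers. Versions and the normalisation are not given in the sources used here. The deposited values are whole-number scores per gene that the authors had normalised to 1 shared distribution and rounded, as their values show, so no count model was used and depth per sample is unknown.

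Scores were tested as log2(score + 1) with limma 3.58.1 (R 4.3.3; lmFit and eBayes with a variance trend, Benjamini-Hochberg adjustment), on genes with a score of at least 10 in at least 2 of 8 libraries and with clone as a block. The difference from WT used all 12 libraries. Descriptions and plots used Python 3.11.15 with pandas 2.3.3, NumPy 2.4.6 and Matplotlib 3.10.9, and the fit was tested on simulated data. Genes were named as the 10 with the largest called change each way, the 5 with the smallest adjusted *p*, up to 8 called members a list, and the genes farthest from the other libraries in KO#10 day 24 replicate 1 or in the difference from WT. Members not called, markers and genes given for a contrast were chosen after their values were seen. The libraries, lists and tests were chosen with earlier results of these data known. Alternatives were other pseudocounts, filters, blocks and leaving out each library. A few genes are not reported here. Sequences came from RefSeq (GRCh38.p14).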

Additional observations from a re-analysis of the deposited data

Results flagged for a closer look

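Each gene named in the text and each list mean was looked at in the 4 edited libraries of a day for a single library far from the other 3. The measure was Dixon's ratio, the gap of the highest or lowest library to its nearest neighbour divided by the range, on log2(score + 1), read against its 95% critical value for 4 libraries. Of 492 values, 59 passed it. The chance rate of about 1 in 20 assumes independent values on a continuous scale, which rounded scores with ties do not meet. Of the 59, 26 were in KO#10 day 24 replicate 1. Some of these genes were named because they lay far from the other libraries in that library, so these counts are partly fixed by the choice of genes and are no measure of how unusual it is. That library was the lowest in 16 and the highest in 10. Ratios of 1, where the other 3 libraries share a score, come mostly from genes with low scores and from the coarse top of the scale.

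The ratio is relative to the range, so it can be high where scores differ little. On day 24, KO#10 replicate 1 was the lowest in *ABAT* (0.894), *DLL3* (0.838), *GPM6A* (0.8293), *HES6* (0.842), *ID4* (0.88), *IGF2BP2* (0.841), *KLHDC8A* (0.843), *LINC01551* (0.86), *NNAT* (0.842), *PTPRZ1* (0.975), *PWRN1* (0.86), *SLC17A6* (0.844) and *TBR1* (0.934), and with a ratio of 1 in *GAPDH*, at 820 against 902. It was the highest in *ANXA1* (0.838), *APOE* (0.83) and *GPC3* (0.838), and with a ratio of 1 in *CA4*, *FOSL2*, *MYL9*, *RMST* and *RPL13A*. Its mean level was also apart in the lists for neurogenic commitment (lowest, ratio 0.858), mesenchyme (highest, 0.93) and junctions (highest, 0.884), and on the second principal component (lowest, 0.889).

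KO#10 day 12 replicate 1 was the lowest in *PAX6* (0.876), and with a ratio of 1 in *NRXN3*. It was the highest in *FRZB* (0.852), and with a ratio of 1 in *APOA2*, *NRN1*, *POSTN*, *TTR* and *WNT5A*. KO#10 day 12 replicate 2 was the lowest in *CDKN1A* (0.87), and with a ratio of 1 in *NEDD4* and *RPSA*. KO#10 day 24 replicate 2 was the lowest with a ratio of 1 in *COL9A3* and *TPM1-AS*. It was the highest with a ratio of 1 in *MEF2C* and *MEG3*. KO#2 day 12 replicate 1 was the lowest in *MAP2* (0.879), and with a ratio of 1 in *APOE*, *BAMBI*, *EPHA5* and *NEUROG2*. It was the highest with a ratio of 1 in *RPL13A*. KO#2 day 12 replicate 2 was the highest in *MKI67* (0.844), and with a ratio of 1 in *ABAT*, *AMBN*, *INSM1* and *PNISR*. KO#2 day 24 replicate 1 was the lowest in *AXIN2* (0.93), and with a ratio of 1 in *AEN* and *EGLN3*. It was the highest in *BLACAT1* (0.843) and *BMPR1B* (0.866). Among list means, glia was lowest in KO#10 day 12 replicate 1 (0.914) and the cell cycle in KO#2 day 12 replicate 1 (0.838).

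The change from day 12 to day 24 differed between edited and WT COs, by limma's test of the difference, in these named genes. The edited change was higher in *LINC00504* (4.03), *KIAA1328* (3.05), *REV3L* (2.96), *NRN1* (2.62), *NR2F1* (1.66), *ABAT* (1.58), *HES6* (1.5), *ATRNL1* (1.29) and *DKK3* (1.11). It was lower in *GDF15* (−5.42), *CA4* (−5.27), *NOS2* (−4.63), *ANXA1* (−4.28), *TMEM88* (−4.27), *ACTA2* (−3.90), *LIN28A* (−3.33), *CLDN4* (−3.31), *FOSL2* (−2.77), *CDKN1A* (−2.70), *L1TD1* (−2.48), *SLC2A3* (−2.46), *PAMR1* (−2.45), *GADD45A* (−2.37), *PRTG* (−2.33), *NR6A1* (−2.09), *BBC3* (−2.0), *OCLN* (−1.9), *F11R* (−1.88), *PARD6B* (−1.74), *LIN28B* (−1.54) and *SALL4* (−1.20). Values are the edited minus the WT change on the log2 scale. As a whole these calls rest on single libraries, with 0 to 386 genes higher and 9 to 463 lower when each of the 12 libraries was left out in turn.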

How the results depend on the processing

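The count of genes that rose (546) or fell (508) in edited COs stayed within 1.5 times its value under a pseudocount of 0.1, other filters on low scores, no variance trend, centred libraries, no clone block, a fit of all 12 libraries and each library left out (462 to 576 and 409 to 565). With a pseudocount of 10, which shrinks the changes of genes with low scores, 211 rose and 207 fell. The same setting gave 183 and 149 for KO#2, 178 and 184 for KO#10, and 30 and 137 for the difference from WT. With a library left out, the clone counts ranged from 10 to 369 higher and 5 to 326 lower in KO#2 and from 5 to 274 and 4 to 315 in KO#10, where the lone library of a day was assumed to vary like the others. The difference between clones, 0 genes, became 1 higher and 3 lower without the variance trend, and 0 in every fit that left out a library. The difference from WT (57 and 89) gave 33 higher with 6 groups of line and day, 59 lower with the stricter filter on low scores, and between 0 and 386 higher and 9 and 463 lower with a library left out. The causes were not tested.

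Replicate numbers were used as a block only as an alternative, since the samples share a number and not a known culture. Deviations of same-numbered libraries correlated over genes with *r* of 0.586 between the clones on day 12, 0.32 on day 24, and 0.0136 to 0.269 across days. With the replicate block the edited COs had 561 genes higher and 522 lower, and the difference from WT had 150 and 199.

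Without KO#10 day 24 replicate 1 the median change was −0.12 for WNT genes, 0.43 for axon guidance, −0.76 for p53 targets and −0.12 for imprinted genes, and by less than the spread between libraries it moved to −0.025 for progenitors, 0.06 for mesenchyme and −0.0092 for Notch. Of 180 named genes called, 103 were called under all 17 alternatives, and no named result changed its direction in a call. The scores give no depth, so no counting error could be set, and low scores carry few distinct values.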

Other observations

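Some further gene groups were looked at because their members stood out in the edited libraries, so the lists were chosen after their values were seen and their counts are descriptions. Genes of sterol synthesis and uptake rose in 14 of 21 cases and fell in none, against 5.79% and 5.38% of all genes. Their median change was 1.26. All 4 day 24 libraries lay above all 4 day 12 libraries in 19 of them. *HMGCS1*, which encodes an early enzyme of the mevalonate pathway, had scores of 164, 80, 85 and 51 on day 12 and 750, 902, 750 and 822 on day 24 (3.19 ± 0.27; limma adjusted *p* = 0.000173), in the order KO#2 replicate 1 and 2, then KO#10 replicate 1 and 2. The sterol demethylase gene *CYP51A1* had 19, 20, 16 and 15, then 82, 109, 101 and 102 (2.43 ± 0.14; adjusted *p* = 3.24e-05). KO#10 day 24 replicate 1 was not apart in this group, being above the other 3 libraries in 7 genes and below them in 3, and the count of 14 was the same without it. WT had a median change of 1.09, and no member had a called difference from the edited change.

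A list of FGF signalling genes, with the ligand *FGF8*, ETS and EGR factors that respond to it and feedback inhibitors, had 7 of 12 tested members falling and 1, *PHLDA1*, rising (1.48), against 5.38% and 5.79% of all genes. The phosphatase gene *DUSP4* had 46, 53, 42 and 39 on day 12 and 10, 7, 8 and 4 on day 24 (−2.53 ± 0.19; adjusted *p* = 0.00013). The Sprouty genes *SPRY1* and *SPRY2*, inhibitors of receptor tyrosine kinase signalling, had changes of −2.06 and −1.91, and the ETS factor gene *ETV5* one of −2.34. *SPRY1* was at 8, 10, 24 and 11 on day 24, highest in KO#10 replicate 1, which was above the other 3 libraries in 8 of the 12 genes. The median was −1.30 in edited COs and −0.73 in WT.

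Actomyosin genes fell in 9 of 26 cases and rose in none, against 5.38% and 5.79% of all genes. The tropomyosin gene *TPM1* had 368, 450, 423 and 316, then 61, 57, 99 and 35 (−2.69 ± 0.28; adjusted *p* = 0.000443), and *MYL9*, a myosin light chain gene, had 17, 19, 17 and 16, then 2, 2, 8 and 2 (−2.21). The cytoplasmic actin genes *ACTB* and *ACTG1* were not called. KO#10 day 24 replicate 1 was above the other 3 libraries in 21 of the 26 genes.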
